A study of Mus musculus with 72 samples.

Results

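The mice of the rescue group carried *Bmal1* back in fast muscle only, and the difference that remained between their muscle and WT muscle at 10 weeks was measured by RNA-Seq. It was taken from 13 gastrocnemius libraries of male mice, 6 from WT mice and 7 from *Bmal1*-KO mice given the vector (KO+AAV), of 72 libraries in the series. The 6 KO libraries of the same age are given beside them as the unrescued background. WT mice were littermates from heterozygous parents. KO mice lacked *Bmal1* in all cells. KO+AAV mice were KO pups injected in the first postnatal week with an adeno-associated virus carrying HA-tagged mouse *Bmal1* cDNA under the CK6 promoter, which is constitutive and active in fast skeletal muscle. Their other cells and tissues therefore still lacked *Bmal1*, including the nonmuscle cells inside the gastrocnemius. The expression is also not rhythmic by design, and the muscles were taken at a single time, shortly after lights on. WT mice received no vector, so the vector itself and the expressed *Bmal1* cannot be told apart in this comparison. The only vector control was a separate set of 3 KO+GFP and 3 KO libraries at 10 weeks.

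*Bmal1* (*Arntl* in the gene table) encodes the transcription factor that pairs with CLOCK or NPAS2, binds E-boxes, and drives the genes of its own repressors, the period and cryptochrome proteins and the REV-ERB receptors. The REV-ERBs repress *Arntl*, *Npas2*, *Cry1*, and *Nfil3* through ROR elements, and the PAR bZIP factors DBP, TEF, and HLF act on D-boxes and oppose NFIL3. In skeletal muscle the clock is known to govern genes of glucose uptake, substrate use, and sarcomere assembly in addition to its own parts.

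Reads on genes were 11318203 to 38601790 in WT (median 22650744) and 11616011 to 37712440 in KO+AAV (median 32563431). Sequencing was done at 2 sites. The 3 WT and 4 KO+AAV libraries from ICBR held 32563431 to 38601790 reads and the 3 and 3 from Novogene 11318203 to 11811506. Site was a term of the model. KO+AAV replicate 4 stood apart from the other libraries. It had reads on 22587 genes, against 20011 to 20948 in the other KO+AAV libraries and 19409 to 20919 in WT, and the lowest estimated quality weight of the 10-week libraries, 0.376. KO+AAV replicate 5 was next at 0.519. Where leaving out replicate 4 changed a call of a list described here, the value without it is given. All 13 libraries had the genes of mature fast muscle, with *Acta1*, skeletal actin, at 451840 ± 67275 normalized counts in WT and 492360 ± 70488 in KO+AAV (mean ± SD, n = 6 and 7), and *Myh4*, the fast 2B myosin, at 906330 ± 230460 and 896800 ± 243000. Neither of these 2 genes passed the test (adjusted *P* = 0.762 and 0.935, limma). The sources do not say that each library is from a separate mouse, so *P* values measure the spread between libraries.

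*Arntl* (chr7:113207465-113314126, GRCm38) was at 402, 527, and 634 normalized counts in WT (lowest, median, and highest), at 169, 222, and 281 in KO+AAV, and at 196, 236, and 296 in KO. Each KO+AAV library was below each WT library, and the KO+AAV and KO libraries overlapped over most of their ranges. WT was 1.19 higher than KO+AAV on the log2 scale (SE 0.18, adjusted *P* = 4.79e-05, limma), 1.13 within ICBR and 1.28 within Novogene. An exact two-sided permutation test that exchanged labels within sites gave *P* = 0.00143, the smallest that its 700 arrangements allow. Reads counted over the whole gene do not separate the vector's transcript from that of the disrupted gene, which still gave reads in KO mice. The study did detect HA-tagged BMAL1 protein in KO+AAV gastrocnemius, at a level below that of WT, so these RNA values do not measure the restored protein.

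Of 16199 genes with a mean normalized count above 5, 834 (5.15%) had an adjusted *P* under 0.05 between WT and KO+AAV and are referred to as called. WT was higher in 476 (2.94% of the genes tested) and lower in 358 (2.21%). At an unadjusted *P* under 0.01, the study's threshold but with limma on log2 values in place of the study's DESeq2 test, there were 1418 genes (8.75%), 766 higher and 652 lower in WT. Most differences were small. The median absolute log2 fold change of the called genes was 0.76, with 150 more than 2-fold higher and 129 more than 2-fold lower in WT, and 58 and 36 more than 4-fold. In 463 genes (2.86%) the 6 WT and 7 KO+AAV libraries did not overlap, and 369 of these were called. The median log2 fold change of all genes tested was -0.02. Of the called genes 735 were protein coding, and 806 had the same sign at both sites. Each site alone, with fewer libraries, called 168 genes (ICBR) and 159 (Novogene). Without KO+AAV replicate 4, 336 genes were called higher and 256 lower in WT.

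**Figure D1:**
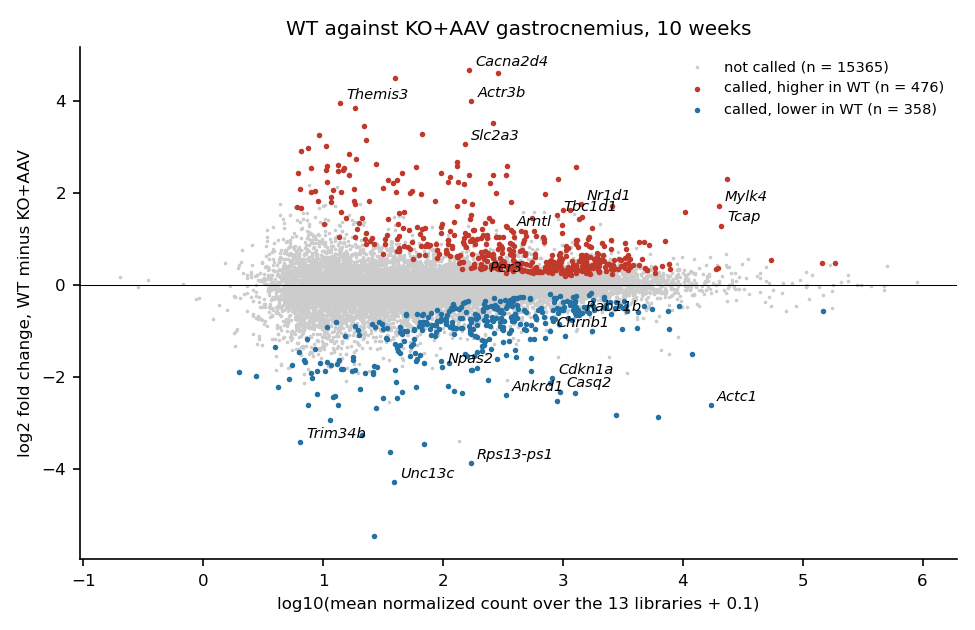
Log2 fold change between WT (n = 6) and KO+AAV (n = 7) gastrocnemius at 10 weeks (y axis, positive when higher in WT) against the log10 of the mean normalized count over the 13 libraries plus 0.1 (x axis), 1 point per gene tested. Red points are the 476 genes called higher in WT, blue points the 358 called lower, and gray points the genes not called, among them *Per3* near 0.

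Clock genes split into those that stayed at the KO level in KO+AAV muscle and those that had moved. *Nr1d1*, which encodes REV-ERBα and is among the best known E-box targets, was at 1208, 2366, and 3591 normalized counts in WT (lowest, median, and highest), 320, 660, and 954 in KO+AAV, and 351, 566, and 949 in KO. No KO+AAV library reached the lowest WT library, and KO+AAV and KO covered the same range. WT was 3.39-fold higher on the fitted scale (1.76 on the log2 scale, SE 0.15, adjusted *P* = 2.21e-09), with the smallest *P* of any gene higher in WT. *Npas2*, the partner of BMAL1 that REV-ERBs repress, went the other way, at 30.3, 36.7, and 64.3 in WT, 83.6, 130, and 227 in KO+AAV, and 160 ± 23.6 in KO (log2 fold change -1.79, SE 0.20, adjusted *P* = 6.32e-07). *Cry1*, also a REV-ERB target, was at 339 ± 42.4 in WT, 493 ± 66.4 in KO+AAV, and 525 ± 50.6 in KO (-0.53, SE 0.11, adjusted *P* = 0.00263). For these 3 genes, as for *Arntl*, KO+AAV against KO had adjusted *P* values of 0.83 or more. The KO+AAV libraries are common to both comparisons, so their values are given side by side and not as separate evidence. By qPCR of the same muscle at the same age and hour, the study reported a different result. There *Nr1d1* was higher and *Cry1* and *Npas2* were lower in KO+AAV than in KO.

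The second REV-ERB gene behaved differently. *Nr1d2* was at 1421, 1773, and 1953 in WT, 723, 960, and 1308 in KO+AAV, and 253 ± 39.4 in KO. KO+AAV libraries lay between the other groups without overlapping WT (log2 fold change to WT 0.82, SE 0.16, adjusted *P* = 0.00155, and to KO 1.96, adjusted *P* = 3.88e-09). *Bhlhe40*, encoding the E-box repressor DEC1, was at 1460 ± 412 in WT, 812 ± 191 in KO+AAV, and 511 ± 72.8 in KO (0.80, SE 0.17, adjusted *P* = 0.00367). Its paralog *Bhlhe41* was at 1473 ± 411, 912 ± 279, and 798 ± 196, with an adjusted *P* of 0.142.

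The period genes gave 3 patterns. *Per3* was at 147, 230, and 306 in WT, 116, 202, and 270 in KO+AAV, and 26.2 ± 10.8 in KO. WT and KO+AAV overlapped almost fully, with a log2 difference of 0.19 and a 95% interval from -0.45 to 0.82 (adjusted *P* = 0.819). *Per2* was higher in KO+AAV, 130, 191, and 232, than in WT, 68.4, 94.8, and 132, and in KO it was at 72.2 ± 12.8 (WT minus KO+AAV -0.94, SE 0.19, adjusted *P* = 0.00151, and KO+AAV minus KO 1.30, adjusted *P* = 0.000191). Thus 1 period transcript was near the WT level and another was above both other groups. *Per1* varied too much between WT libraries, 204 to 1260, for a difference to be seen (337 ± 187 in KO+AAV, adjusted *P* = 0.66).

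Among the activators, *Clock* was at 765 ± 69.8 in WT, 867 ± 83.9 in KO+AAV, and 1244 ± 223 in KO, with WT and KO+AAV not separated (-0.18, SE 0.12, adjusted *P* = 0.423). *Arntl2*, the paralog of *Arntl*, was at 38.5 ± 8.84 and 32.7 ± 7.61 (adjusted *P* = 0.714). Of the 4 activator genes, 1 was called higher (*Arntl*) and 1 lower (*Npas2*) in WT, and of the 10 repressor genes 3 higher (*Nr1d1*, *Nr1d2*, *Bhlhe40*) and 2 lower (*Per2*, *Cry1*), with a list median of 0.62 against -0.02 over all genes tested. None of the 6 tested ROR, kinase, and ligase genes was called by limma, or by edgeR or DESeq2 on the recovered reads, and 2 had an unadjusted *P* under 0.05. *Cry2*, the other cryptochrome gene, was at 496 ± 111 in WT and 665 ± 91.2 in KO+AAV (adjusted *P* = 0.492), and *Ciart*, a repressor of BMAL1, at 31.9 ± 15.3 and 15.8 ± 7.50 (adjusted *P* = 0.261).

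Clock output genes were called higher in WT in 5 of 17 and lower in 0, with a median of 0.33. *Tcap*, which encodes telethonin of the sarcomeric Z-disc, was at 28271, 29714, and 32420 in WT, 7380, 12535, and 15771 in KO+AAV, and 8902 ± 2022 in KO. The WT libraries were tightly grouped, and the highest KO+AAV library was far below them (1.29, SE 0.21, adjusted *P* = 0.000151). *Mylk4*, a muscle myosin light chain kinase family member, was at 31102 ± 7052 in WT and 10316 ± 4689 in KO+AAV, against 1891 ± 818 in KO (1.73, SE 0.38, adjusted *P* = 0.00413).

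The PAR bZIP genes were intermediate in KO+AAV, and only *Hlf* of the 3 passed the test. *Hlf* was at 245 ± 54.7, 133 ± 35.9, and 36.3 ± 11.7 in WT, KO+AAV, and KO, without overlap between the first groups (0.90, SE 0.24, adjusted *P* = 0.0204), but the adjusted *P* was up to 0.068 without WT replicate 2 or 3 or KO+AAV replicate 5. *Dbp* was at 571 ± 234, 388 ± 116, and 112 ± 6.47 (0.44, SE 0.27, adjusted *P* = 0.404), and *Tef* at 4413 ± 682, 3658 ± 505, and 2749 ± 324 (0.25, SE 0.11, adjusted *P* = 0.222). *Nfil3* was at 572 ± 334 and 675 ± 81.9 and *Wee1*, a cell cycle kinase gene, at 69.7 ± 21.3 and 60.1 ± 19.6 in WT and KO+AAV (adjusted *P* = 0.404 and 0.78). The 2 remaining called output genes had small differences. *Usp2*, a deubiquitinase gene, and *Nampt*, of NAD salvage, were 0.33 and 0.45 higher in WT (adjusted *P* = 0.0278 and 0.0227). Both calls were lost without KO+AAV replicate 4, which leaves 3 called output genes (3 also without KO+AAV replicate 5 or WT replicate 2, 3, or 4), and also without other single libraries (adjusted *P* up to 0.1 without WT replicate 6 for *Usp2* and 0.079 without WT replicate 3 for *Nampt*).

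**Figure D2:**
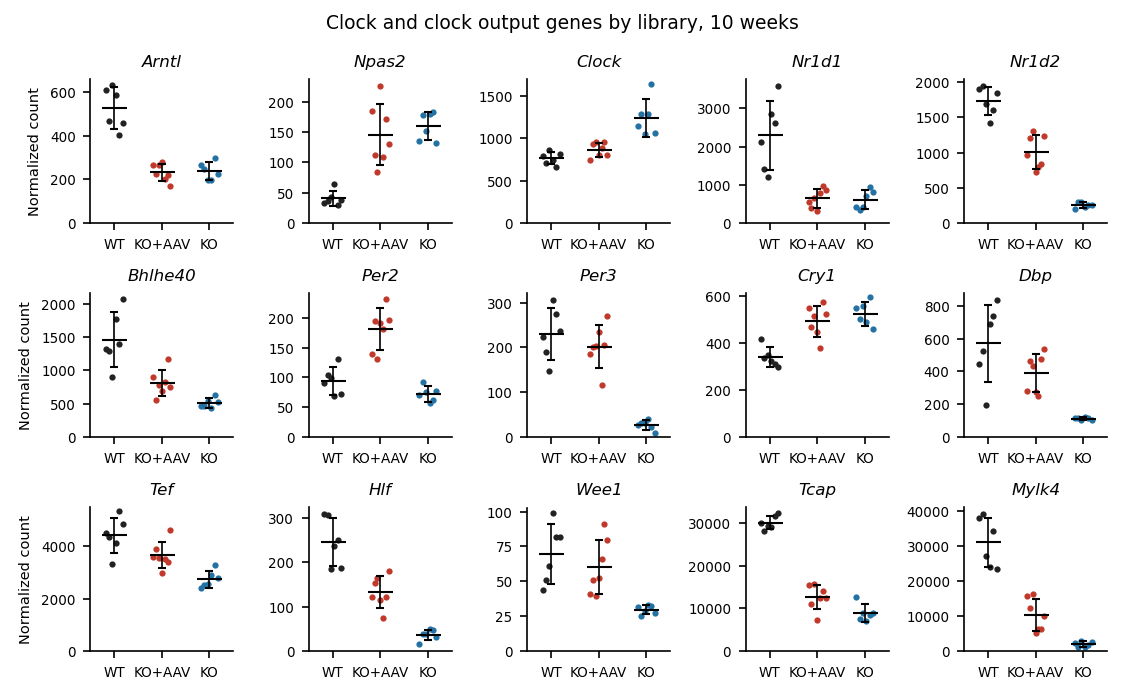
Normalized counts (y axis, each panel starting at 0) of 15 clock and clock output genes in the 6 WT, 7 KO+AAV, and 6 KO libraries at 10 weeks, 1 point per library, with the mean and SD as bars. *Nr1d1*, *Npas2*, and *Cry1* in KO+AAV lie at the level of KO, *Per3* lies at the level of WT, *Nr1d2*, *Hlf*, and *Mylk4* lie between, and *Per2* lies above both.

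Promoters are shown for 4 of these genes, with no motif, D-boxes, or an E-box. In KO+AAV the transcripts of *Nr1d1* and *Cry1* lay at the KO level, *Per3* near WT, and *Tef* between the 2. Each promoter is the 250 bases before the RefSeq start (GRCm38.p6), 5′ to 3′ on the gene's strand, with E-boxes or D-boxes in capitals. *Nr1d1* (chr11:98775378-98775627, minus strand) stayed at the KO level and its window holds none of the motifs searched. *Per3* (chr4:151044666-151044915, minus strand) was near WT and has 2 D-boxes, the first bases of which are at -205 and -158 from the start. *Cry1* (chr10:85185055-85185304, minus strand) has an E-box at -60, and *Tef* (chr15:81802423-81802672, plus strand) an E-box at -127.
Nr1d1: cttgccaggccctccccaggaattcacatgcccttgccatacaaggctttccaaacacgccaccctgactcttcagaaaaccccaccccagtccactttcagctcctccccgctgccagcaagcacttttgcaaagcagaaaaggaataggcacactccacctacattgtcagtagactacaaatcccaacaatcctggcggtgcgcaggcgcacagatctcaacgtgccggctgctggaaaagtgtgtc
Per3: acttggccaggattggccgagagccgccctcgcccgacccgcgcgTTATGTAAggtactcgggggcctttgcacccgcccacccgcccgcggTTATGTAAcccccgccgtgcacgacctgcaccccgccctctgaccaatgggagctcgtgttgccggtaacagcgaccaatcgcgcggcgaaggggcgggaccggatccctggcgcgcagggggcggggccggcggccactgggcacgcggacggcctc
Cry1: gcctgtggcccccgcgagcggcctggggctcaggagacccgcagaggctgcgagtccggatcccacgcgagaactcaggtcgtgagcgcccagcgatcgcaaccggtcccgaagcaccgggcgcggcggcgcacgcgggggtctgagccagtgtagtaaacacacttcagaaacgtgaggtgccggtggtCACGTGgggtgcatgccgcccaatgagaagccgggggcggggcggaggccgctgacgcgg
Tef: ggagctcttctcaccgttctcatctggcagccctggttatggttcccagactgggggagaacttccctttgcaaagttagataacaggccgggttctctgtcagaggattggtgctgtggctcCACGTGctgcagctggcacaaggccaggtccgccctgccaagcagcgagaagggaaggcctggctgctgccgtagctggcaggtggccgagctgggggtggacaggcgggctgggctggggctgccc
The motifs searched on both strands, from 250 bases before to 50 after the start, were the E-box CACGTG, the D-box TTATGTAA, and the ROR element TAGGTCA, and none of them overlaps another by its letters. An E-box was present in 10.2% of the 353 genes called higher in WT that had a promoter, in 12.4% of the 266 called lower, and in 11.4% of all 11123 tested genes with one. A D-box was present in 1.42%, 0.752%, and 0.683%, and a ROR element in 3.12%, 1.13%, and 2.26%. Of 31 activator, repressor, and output genes 24 had a promoter, with an E-box in 7, a D-box in 1, and a ROR element in 3. A match is a description of these windows and not of binding.

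The genes with the smallest *P* values among those higher in WT included, after *Nr1d1*, some with a low level in both KO+AAV and KO. *Actr3b* (chr5:25759997-25850688), of an actin-related protein of the ARP2/3 family, was at 256, 333, and 486 in WT and 8.42, 18.2, and 62.9 in KO+AAV, and at 24.3 ± 12.9 in KO. WT was 16.0-fold higher (4.0 on the log2 scale, SE 0.37, adjusted *P* = 1.77e-08). *Cacna2d4* (chr6:119236526-119352407), of an accessory α2δ subunit of voltage-gated calcium channels, had the largest change upward in WT among the called genes without overlap (4.67 on the log2 scale, SE 0.45, adjusted *P* = 3.63e-08), with 203, 368, and 450 in WT, 8.85, 11.2, and 19.0 in KO+AAV, and 3.80 ± 2.17 in KO. Both genes were at low counts in KO+AAV and KO, and no KO+AAV library reached the lowest WT library. *Lrtm2*, which lies within the span of *Cacna2d4* without sharing exons (chr6:119315133-119330766), was at 18.2 to 116 in WT and 0 to 9.39 in KO+AAV (3.46, SE 0.58, adjusted *P* = 0.000209).

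*Slc2a3* (chr6:122727809-122801640), the GLUT3 glucose transporter gene, was at 155, 294, and 421 in WT, 14.3, 30.3, and 51.4 in KO+AAV, and 9.97 ± 2.75 in KO. WT was 8.41-fold higher than KO+AAV (3.07, SE 0.34, adjusted *P* = 3.62e-07), while KO+AAV was 1.61 above KO on the log2 scale (adjusted *P* = 0.0251). *Slc25a30*, of a mitochondrial carrier, was at 209, 361, and 747 in WT and 65.1, 81.5, and 123 in KO+AAV (2.22, SE 0.25, adjusted *P* = 3.74e-07), with a difference of 2.92 within ICBR and 1.47 within Novogene. *Oplah*, which encodes 5-oxoprolinase of glutathione turnover, and *Mreg*, of melanoregulin, differed by about the same amount, 1.06 and 1.01 (adjusted *P* = 9.44e-07 and 8.82e-07).

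*Hipk2* (chr6:38694390-38876165), a nuclear serine/threonine kinase gene, was an exception to the order of the groups. It was at 1946, 2233, and 2736 in WT, 887, 1111, and 1311 in KO+AAV, and 1576 ± 327 in KO, so KO+AAV was the lowest of the 3 groups (WT minus KO+AAV 1.04, SE 0.12, adjusted *P* = 3.74e-07, and KO+AAV minus KO -0.50, adjusted *P* = 0.0534). *Irx3os*, a transcript antisense to *Irx3*, was at 129 ± 42.7 in WT and 13.3 ± 5.95 in KO+AAV (3.28, adjusted *P* = 3.59e-07). *Amy1*, the salivary amylase gene, was at 457 ± 84.8 and 123 ± 45.3 (2.0, adjusted *P* = 7.74e-07). It shares 32.7% of its exon length with *Rnpc3* on the same strand, so its counts are uncertain, as are those of *Irx3os* where strand was not used in counting. *Themis3*, a member of the THEMIS gene family, was at 12.1 to 54.3 in WT and 0 to 2.17 in KO+AAV (3.96, adjusted *P* = 2.14e-06).

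Among genes lower in WT, the smallest *P* values were those of *Rps13-ps1* and *Rab11b*. *Rps13-ps1* (chr8:87047689-87048226), a processed pseudogene of ribosomal protein S13, was at 20.4 ± 8.76 in WT, 299 ± 65.8 in KO+AAV, and 348 ± 61.4 in KO (-3.89, SE 0.27, adjusted *P* = 4.22e-11), and *Rps15a-ps7* at 4.52 ± 2.49, 63.3 ± 20.5, and 67.0 ± 18.1 (-3.63, adjusted *P* = 5.66e-08). Reads of such copies can be exchanged with the parent genes, which makes both values uncertain. *Rab11b* (chr17:33742484-33760530), of a small GTPase of recycling endosomes, had a small but very even difference, 903, 1045, and 1279 in WT and 1490, 1604, and 1800 in KO+AAV, with 2149 ± 192 in KO (-0.65, SE 0.06, adjusted *P* = 3.63e-08).

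*Chrnb1* (chr11:69784036-69795943), the β1 subunit of the muscle acetylcholine receptor, was at 424, 495, and 625 in WT, 865, 995, and 1231 in KO+AAV, and 1082 ± 146 in KO. KO+AAV was 2.01-fold higher than WT and level with KO (-1.01, SE 0.11, adjusted *P* = 2.91e-07). *Grb10*, an adaptor that dampens insulin receptor signaling and an imprinted gene, was at 521, 658, and 712 in WT, 1148, 1334, and 1981 in KO+AAV, and 1313 ± 85.6 in KO (-1.12, SE 0.12, adjusted *P* = 3.74e-07). *Gramd1b*, of a cholesterol transfer protein, was at 197 ± 40.0, 581 ± 127, and 761 ± 200 (-1.56, SE 0.19, adjusted *P* = 1.93e-06).

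*Tceal7*, a gene on X (chrX:136214779-136226100), was highest in KO+AAV, at 139, 198, and 367 in WT, 608, 1694, and 2242 in KO+AAV, and 899 ± 215 in KO (-2.53, SE 0.32, adjusted *P* = 3.45e-06). *Unc13c*, of a synaptic vesicle priming protein, was at 0 to 5.62 in WT and 19.0 to 211 in KO+AAV (-4.29, SE 0.71, adjusted *P* = 0.000177). *Slc17a7*, the vesicular glutamate transporter gene VGLUT1, was at 0 to 6.29 in WT and 23.2 to 58.5 in KO+AAV (-3.28, adjusted *P* = 1.20e-05). The last 2 genes are known for neuronal expression and were at low counts in WT, and *Slc17a7* also in KO+AAV. *Knop1* (-0.83, adjusted *P* = 1.53e-06) lies near *Arntl* and is taken up with its neighbors, and *Hectd2os* (-1.24, adjusted *P* = 3.44e-06) is antisense to *Hectd2* and shares 46.1% of its exon length with the other strand.

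**Figure D3:**
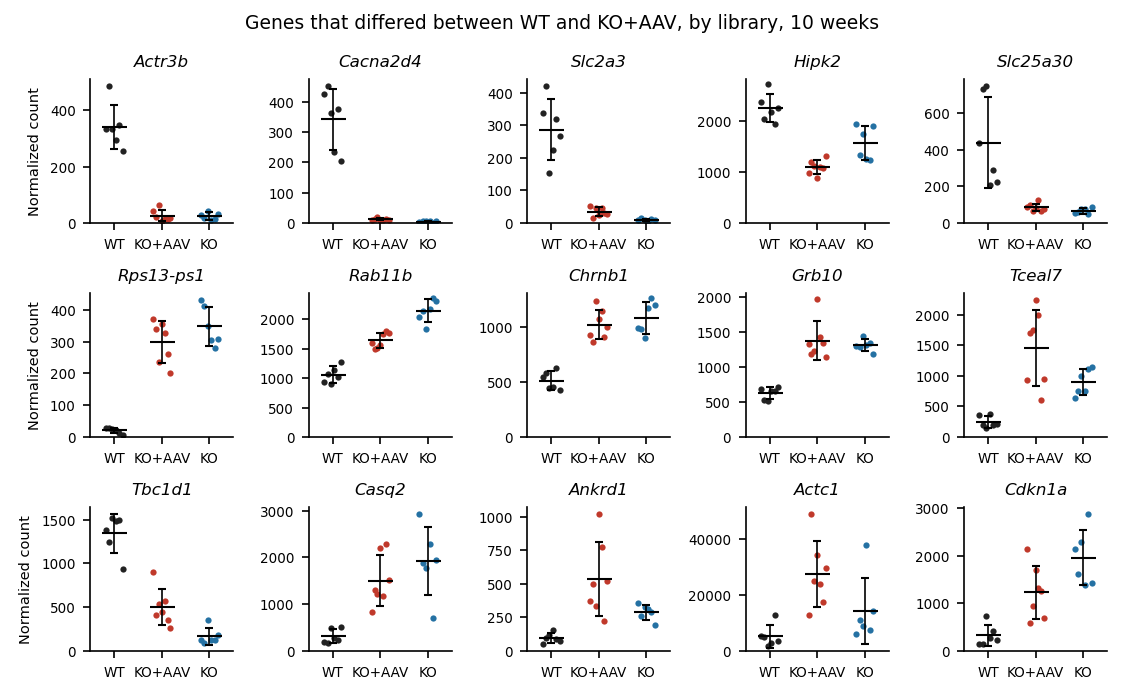
Normalized counts (y axis, each panel starting at 0) of 15 genes that differed between WT and KO+AAV, in the 6 WT, 7 KO+AAV, and 6 KO libraries at 10 weeks, 1 point per library, with the mean and SD as bars. KO+AAV lies at the KO level for *Actr3b*, *Rps13-ps1*, *Chrnb1*, and *Grb10*, between WT and KO for *Rab11b* and *Tbc1d1*, and outside the range between the 2 means for *Hipk2*, *Tceal7*, *Ankrd1*, and *Actc1*.

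Gene lists from muscle biology held only a small part of the 834 called genes. Over the 45 lists 746 different genes were tested and 62 were called (8.31%, beside 5.15% of all genes). The lists were chosen with earlier results of these data known, so no conclusion is drawn from the difference between these shares. Glucose uptake and pyruvate entry had 6 of 25 members called higher in WT and 0 lower, with a median of 0.11. Without KO+AAV replicate 4 or 5 or WT replicate 4 the median was 0.07, 0.06, and 0.06, with 5 called each time. *Slc2a3* was described above. *Tbc1d1*, which encodes a Rab GTPase-activating protein that holds back GLUT4 vesicles until it is phosphorylated, was at 940, 1433, and 1515 in WT, 264, 448, and 905 in KO+AAV, and 167 ± 96.0 in KO (1.52, SE 0.25, adjusted *P* = 0.000216, and KO+AAV minus KO 1.62, adjusted *P* = 0.000654). *Slc2a4*, the GLUT4 gene, was at 8856 ± 410 and 6564 ± 1395 (0.45, SE 0.12, adjusted *P* = 0.0218), a call that was lost without WT replicate 3 or 4 or KO+AAV replicate 4 or 5 (adjusted *P* up to 0.068). The remaining 3 were the hexokinase gene *Hk2* (0.57, adjusted *P* = 0.00204), the mitochondrial pyruvate carrier gene *Mpc1* (0.54, adjusted *P* = 0.000274), and *Rab10* of GLUT4 vesicle transport (0.40, adjusted *P* = 0.00657). In KO their means were 3736, 1073, and 5848, close to those of KO+AAV, 3787, 1224, and 5896.

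In glycolysis and glycogen metabolism 1 of 29 genes was called, *Pfkm*, muscle phosphofructokinase, at 64015 ± 8324 in WT and 46160 ± 14957 in KO+AAV (0.55, SE 0.14, adjusted *P* = 0.02), a call lost without WT replicate 2 or KO+AAV replicate 4 or 5 (adjusted *P* up to 0.065). Up to 4 members were called with 1 library left out (KO+AAV replicate 1). Of 34 genes of fatty acid uptake and oxidation 0 were called higher and 1 lower in WT, *Plin5*, of a lipid droplet protein (222 ± 139 in WT, 471 ± 193 in KO+AAV, and 732 ± 101 in KO, -1.21, adjusted *P* = 0.00731). The list median was -0.24, and 29 of 34 members had a negative sign. The median was -0.14 without KO+AAV replicate 6, and 3 members were called without KO+AAV replicate 3. PPAR target genes had 3 of 22 lower in WT, *Plin5*, *Ucp2* (-1.31, adjusted *P* = 0.0324), and *Pparg* (-0.97, adjusted *P* = 0.0188). With 1 library left out the adjusted *P* reached 0.1 for *Ucp2* (without KO+AAV replicate 5) and 0.068 for *Pparg* (without WT replicate 3), and neither was called without KO+AAV replicate 4. The number of PPAR target genes called lower ran from 1 (without WT replicate 3 or KO+AAV replicate 4) to 5 (without KO+AAV replicate 3). Phospholipid genes had 2 of 31 lower, the acyltransferase genes *Agpat3* (2128 ± 190, 2756 ± 269, and 3753 ± 261 in WT, KO+AAV, and KO, adjusted *P* = 0.00348) and *Agpat2* (-1.03, adjusted *P* = 0.00304). In that list 4 genes were called lower without KO+AAV replicate 3 and 3 without KO+AAV replicate 5 or WT replicate 2 or 5. With all libraries edgeR called 4 of the 31 and DESeq2 8. Of 23 antioxidant genes 1 was called, *Gstm2*, a glutathione transferase gene, at 450 ± 119 in WT and 694 ± 85.2 in KO+AAV (-0.68, adjusted *P* = 0.00595).

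The respiratory chain showed no called gene, 0 of 37 complex I subunits and 0 of 40 subunits of complexes II to V by limma, with medians of -0.08 and -0.14. A negative sign, lower in WT, was found in 28 of 37 and 39 of 40 members. With 1 library left out the medians ran from -0.13 (without KO+AAV replicate 4) to -0.04 (without WT replicate 2) and from -0.20 (without KO+AAV replicate 5) to -0.09 (without WT replicate 2). At an unadjusted *P* under 0.05 there were 1 and 5, and edgeR and DESeq2 called 0 in both. In the TCA cycle list *Pcx*, pyruvate carboxylase, was 1606, 1912, and 3175 in WT and 824, 1079, and 1408 in KO+AAV, without overlap (1.0, SE 0.13, adjusted *P* = 7.84e-06), and 3 of 22 members were lower in WT, *Sucla2* (-0.46, adjusted *P* = 0.000869), *Me3* (-0.55, adjusted *P* = 0.00266), and *Idh1* (-0.50, adjusted *P* = 0.0126). The list also holds genes next to the cycle, and of these called members only *Sucla2* belongs to the cycle itself. *Gpt*, alanine aminotransferase, was the 1 called gene of 32 in amino acid metabolism, at 368 ± 62.3 in WT, 686 ± 127 in KO+AAV, and 1070 ± 217 in KO (-0.88, adjusted *P* = 0.000279). None of 28 atrophy and nutrient sensing genes, 31 proteasome subunits, and 32 chaperone genes was called by limma. An unadjusted *P* under 0.05 was found in 6, 9, and 4 of them. DESeq2 called 4, 2, and 0, and edgeR 1, 0, and 0. Without KO+AAV replicate 4 limma called 1 atrophy and nutrient sensing gene, higher in WT.

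Genes of the fiber itself differed in a few members. *Casq2*, the cardiac and slow muscle calsequestrin that binds calcium in the sarcoplasmic reticulum, was at 176, 259, and 509 in WT, 828, 1304, and 2285 in KO+AAV, and 1919 ± 731 in KO (-2.32, SE 0.37, adjusted *P* = 9.31e-05). *Camk2d*, a calcium-dependent kinase gene, was also lower in WT (-0.65, adjusted *P* = 0.000289), so the 26 calcium genes had 1 higher (*Cacna2d4*) and 2 lower, or 3 lower without KO+AAV replicate 4 or 5. *Actc1*, cardiac actin, was at 1783, 4209, and 12754 in WT, 13029, 25154, and 48928 in KO+AAV, and 14277 ± 11931 in KO (-2.61, SE 0.44, adjusted *P* = 0.000223). *Ankrd1*, of a stretch-responsive titin-binding protein, was at 48.1, 89.7, and 158 in WT, 226, 497, and 1021 in KO+AAV, and 288 ± 57.2 in KO (-2.40, SE 0.35, adjusted *P* = 3.62e-05). These were the 2 called members of 10 cardiac or developmental sarcomere genes, and both had their highest mean in KO+AAV.

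In the denervation and acetylcholine receptor list 3 of 15 genes were lower in WT, *Chrnb1*, *Chrna1* (-0.72, adjusted *P* = 0.0153), and *Gadd45a* (-0.98, adjusted *P* = 0.00769), and 0 were higher. Of 10 slow fiber genes 0 were called by limma, edgeR, or DESeq2, and 0 had an unadjusted *P* under 0.05, with a median of -0.78 and a very wide spread. The median was -0.38 without WT replicate 3, -0.46 and -0.48 without KO+AAV replicates 6 and 4, and -1.08 without KO+AAV replicate 3. *Myh7*, slow myosin, ran from 6.57 to 4943 among WT libraries and from 12.6 to 14740 among KO+AAV libraries. *Mylpf*, the fast regulatory light chain, was the 1 called gene of 16 in the fast fiber list (-0.57, adjusted *P* = 0.0449). This call was lost without any 1 of 11 of the 13 libraries (adjusted *P* = 0.064 without KO+AAV replicate 4 and up to 0.14). *Tead4*, of a factor that works with YAP, was at 241 ± 36.6 in WT, 355 ± 82.4 in KO+AAV, and 653 ± 95.5 in KO (-0.54, adjusted *P* = 0.0118).

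Stress and senescence genes were called in 4 of 20. *Cdkn1a*, encoding the cell cycle inhibitor p21, was at 148, 256, and 729 in WT, 583, 1255, and 2136 in KO+AAV, and 1964 ± 583 in KO (-2.02, SE 0.35, adjusted *P* = 0.000328). The p53 target *Bbc3* (-1.17, adjusted *P* = 0.00518) and *Gadd45a* were also lower in WT, whereas *Phlda3*, another p53 target, was higher at 4249 ± 547 against 2602 ± 921 (0.79, adjusted *P* = 0.00802). In the 23 glucocorticoid responsive genes *Cdkn1a* was lower and *Gadd45g*, a stress-inducible gene, higher in WT. *Gadd45g* was at 1196 ± 744 in WT and 299 ± 165 in KO+AAV (1.97, adjusted *P* = 0.00437). *Mlf1* was 0.78 higher (adjusted *P* = 0.00465), and *Kcna7*, a muscle potassium channel gene, 0.43 higher in WT (adjusted *P* = 0.0431, up to 0.14 without KO+AAV replicate 5). With 1 library left out, *Kcna7* kept its call only without WT replicate 3 or KO+AAV replicate 1, 3, or 6. *Aebp1* and *Car3*, which were far lower in KO (261 ± 40.6 and 4145 ± 1423), were at 1563 ± 438 and 29021 ± 7844 in WT and at 1062 ± 266 and 17889 ± 4414 in KO+AAV (adjusted *P* = 0.226 and 0.185).

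**Figure D4:**
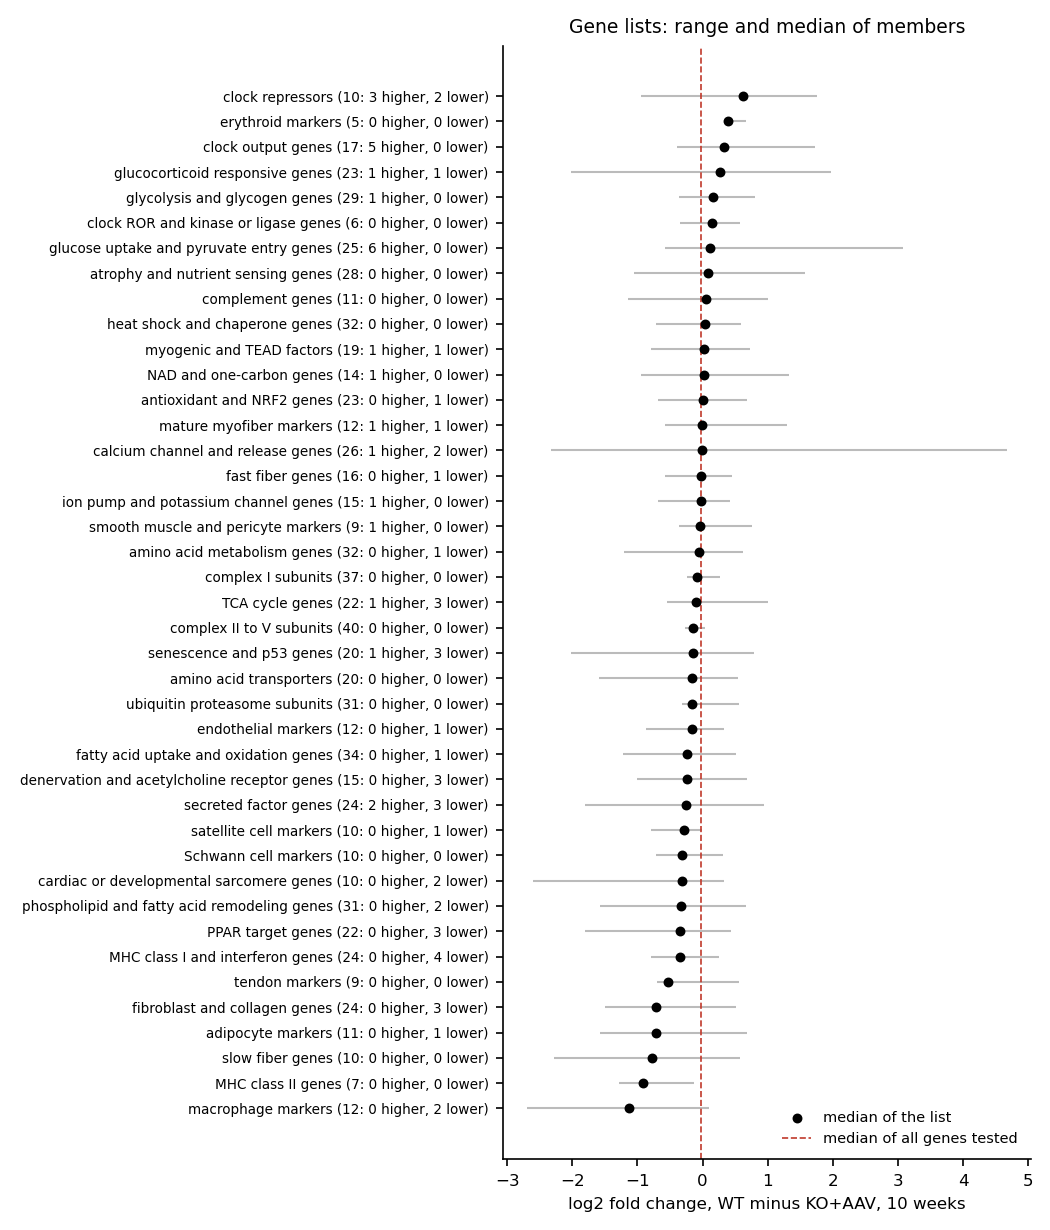
Range (gray line) and median (black point) of the log2 fold change between WT and KO+AAV at 10 weeks (x axis, positive when higher in WT) for each gene list with 5 or more genes tested (y axis, with the number tested and the numbers called higher and lower in WT). The dashed line is the median of all genes tested, -0.02, and the macrophage, MHC class II, slow fiber, adipocyte, and collagen lists have the lowest medians.

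Markers of other cell types were called in some lists and not in others. Of Schwann cell (10), tendon (9), erythroid (5), neutrophil (2), and T cell and NK cell (1) markers 0 were called by limma, edgeR, or DESeq2, with 0, 1, 1, 0, and 0 at an unadjusted *P* under 0.05. Of all genes tested, 5.15% were called and 2.21% were called lower in WT. In a whole muscle, fewer cells of a type and less RNA per cell cannot be told apart. Of 24 MHC class I and interferon genes 0 were called higher and 4 lower in WT, the class I heavy chain genes *H2-K1* (913, 1091, and 1151 in WT and 1259, 1632, and 2036 in KO+AAV, -0.60, adjusted *P* = 0.00404) and *H2-D1* (-0.57, adjusted *P* = 0.00404), *B2m* (-0.60, adjusted *P* = 0.00518), and *Bst2* (-0.80, adjusted *P* = 0.0409, up to 0.11 without WT replicate 6). The median of the list was -0.35. Without KO+AAV replicate 4, as without replicate 5, 3 of the 4 were called. With 1 library left out, *Bst2* kept its call only without WT replicate 4 or KO+AAV replicate 1 or 3. In KO the means of *H2-K1* and *H2-D1* were 1409 ± 286 and 1465 ± 249, below those of KO+AAV, 1640 ± 240 and 1896 ± 372.

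Of 12 macrophage markers 2 were lower in WT, *Cx3cr1*, the fractalkine receptor gene (1.51, 6.41, and 9.38 in WT, 23.8, 30.8, and 98.6 in KO+AAV, and 25.7 ± 10.6 in KO, -2.69, SE 0.52, adjusted *P* = 0.00105), and *Mrc1*, the mannose receptor gene (-1.34, adjusted *P* = 0.00977). The list median was -1.13, and its summed level was 584 to 2062 in WT, 852 to 8974 in KO+AAV, and 407 to 1258 in KO. Replicate 5 held the highest KO+AAV sum and the next was 2481. Without it the median was -0.58 and the same number of markers, 2, was called by limma. With all libraries edgeR called 4 of the 12 and DESeq2 6. The most abundant marker, *Lyz2*, was at 5150 in that library and 262 to 785 in the other KO+AAV libraries (adjusted *P* = 0.326), and all 12 markers, *Cd68* and *Adgre1* included, had reads in each group. Of 7 MHC class II genes 0 were called by limma or edgeR and 2 by DESeq2, with 3 at an unadjusted *P* under 0.05 and a median of -0.92. Whether cell content had a part in the other differences was not tested.

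Of 24 fibroblast and collagen genes 0 were called higher and 3 lower in WT by limma, with a median of -0.71. With edgeR 6 were called and with DESeq2 8. *Col4a2*, a basement membrane collagen chain gene, was at 1734, 1985, and 2200 in WT, 2888, 3549, and 8427 in KO+AAV, and 3539 ± 629 in KO (-0.97, SE 0.17, adjusted *P* = 0.000413), and *Col4a1* at 2643 ± 340, 5399 ± 2576, and 4318 ± 1119 (-0.94, adjusted *P* = 0.00492). *Sparc* was 0.96 lower (adjusted *P* = 0.0459, up to 0.12 without WT replicate 4). With 1 library left out, *Sparc* kept its call only without WT replicate 5 or KO+AAV replicate 2, 3, 6, or 7. *Col1a1*, of fibrillar collagen, was at 1426, 2437, and 5804 in WT and 4011, 5266, and 49980 in KO+AAV (adjusted *P* = 0.0792). KO+AAV replicate 4 held the highest value of all 4 and a summed level of 231620 for the list, against 41526 to 57010 in the other KO+AAV libraries and 24679 to 55993 in WT. Without it the 2 type IV collagen genes were still called, *Sparc* was not, and the median was -0.53. Without WT replicate 5, 6 members were called lower. The most abundant member by mean over the 13 libraries, *Col1a2*, had an adjusted *P* of 0.22.

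The remaining lists of other cell types with calls held 1 each by limma, where 5.15% of all genes tested were called. These calls were *Cldn5* of 12 endothelial markers (-0.87, adjusted *P* = 0.0112), *Itga7* of 10 satellite cell markers, which is also the integrin of mature fibers (-0.54, adjusted *P* = 0.000647), *Pparg* of 11 adipocyte markers, *Lmod1* of 9 smooth muscle and pericyte markers (0.76, adjusted *P* = 0.0136, and 0.056 without WT replicate 2), and *Ighg2c* of 3 tested B cell and plasma cell markers, at 1.51 to 21.4 in WT and 0 to 2.80 in KO+AAV (2.99, adjusted *P* = 6.32e-05). With edgeR and DESeq2 there were 2 and 3 satellite cell markers and 2 and 2 adipocyte markers called. *Ighm*, of the same list, was at 1531 ± 505 and 874 ± 294 (adjusted *P* = 0.308). Satellite cell markers were all 10 of negative sign with a median of -0.29 (-0.18 without KO+AAV replicate 4), and *Pax7*, the defining one, was at 59.1 in WT and 64.7 in KO+AAV. Of 24 secreted factor genes 2 were higher (*Nampt*, *Dkk3*) and 3 lower (*Apln*, *Igfbp3*, *Sparc*) in WT. Without KO+AAV replicate 4 there were 2 higher, of which *Dkk3* was 1 and *Nampt* was not, and 0 lower, and without replicate 5 there were 1 and 2. No member was called lower without WT replicate 2 or 4 either. With all libraries edgeR called 5 of the 24 and DESeq2 10. *Apln*, of the peptide apelin, was at 28.1, 36.8, and 57.6 in WT and 55.3, 109, and 371 in KO+AAV (-1.65, adjusted *P* = 0.0248), and lost its call without KO+AAV replicate 4 (adjusted *P* = 0.076) or without WT replicate 2, 4, or 7. *Igfbp3*, of an IGF-binding protein (-0.98), had an adjusted *P* of 0.13 without WT replicate 3 and was called in 3 of the 13 fits that left out 1 library.

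Genes around *Arntl* were counted separately, since they are linked to the deleted locus. The part of linkage in their differences was not tested. Within 10 Mb on either side 11 genes were called higher and 5 lower of 157 tested (10.2%), against 56 of 1120 (5%) on the rest of chromosome 7. The 16 calls became 10 without WT replicate 2 or 3, 8 without WT replicate 6, 10 without KO+AAV replicate 4, and 9 without KO+AAV replicate 5. Nearer windows held few genes, with 2 of 13 called (15.4%) within 1 Mb, 3 of 19 (15.8%) within 2 Mb, and 3 of 64 (4.69%) within 5 Mb. *Trim34b* (chr7:104329471-104336909), of an antiviral TRIM cluster, had no read in any WT library and was at 1.40, 11.4, and 21.0 in KO+AAV (adjusted *P* = 4.75e-05). *Trim12a*, in the same cluster, was at 57.5 to 95.5 in all 6 WT libraries. In KO+AAV it was at 47.6 in replicate 7, 34 in replicate 2, 1.32 in replicate 6, and 0 in the other 4, and in KO at 80.8 in replicate 1 and 0 in the other 5 (WT minus KO+AAV 4.50, adjusted *P* = 0.0129). *Trim30d* had the same libraries high, 9.80 and 10.1 in KO+AAV replicates 7 and 2 and 22.7 in KO replicate 1. Neither *Trim12a* nor *Trim30d* was called by edgeR or DESeq2, and *Trim30d* (adjusted *P* up to 0.065) was not called without WT replicate 3, 5, or 6 or KO+AAV replicate 1 or 4. The libraries of 1 genotype were therefore not alike across this cluster.

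On the other side, *Knop1* (chr7:118842222-118856254), of a nucleolar protein, was at 450, 466, and 552 in WT and 640, 876, and 1113 in KO+AAV (-0.83, SE 0.10, adjusted *P* = 1.53e-06). *Tmc7*, a transmembrane channel-like gene 5.22 Mb away, was at 232 to 327 in WT and, in KO+AAV, at 203 and 218 in replicates 3 and 6 and at 20.2 to 35.6 in the other 5 (2.39, adjusted *P* = 0.00364). *Spon1*, *Syt9*, *Dkk3*, and *Crym* were higher in WT by 1.13, 2.25, 0.85, and 0.93 (adjusted *P* = 0.00741, 0.0206, 0.0324, and 0.0402). With 1 library left out the adjusted *P* of *Syt9*, *Dkk3*, and *Crym* reached 0.061 (without WT replicate 3), 0.1 (without KO+AAV replicate 5), and 0.11 (without KO+AAV replicate 4), and edgeR called neither *Dkk3* nor *Crym*. In these fits *Dkk3* kept its call only without WT replicate 3 or 4 or KO+AAV replicate 4, 6, or 7. *Crym* kept its call only without WT replicate 4 or KO+AAV replicate 2, 3, or 6. Leaving out *Arntl* and all genes within 10 Mb left 817 called genes.

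The 5 WT and 5 KO+AAV libraries at 40 weeks come from other mice and allow the differences to be looked at again. At that age 980 genes (6.05%) were called higher and 1038 (6.41%) lower in WT. Of the 476 genes called higher at 10 weeks, 249 (52.3%) were called higher at 40 weeks and 2 lower, and 453 had the same sign. Of the 358 called lower, 184 (51.4%) were called lower and 0 higher, and 329 had the same sign. The median log2 fold change at 40 weeks was 0.50 in the former and -0.60 in the latter, beside 0.66 and -0.85 at 10 weeks. Since the genes were chosen by their 10-week test, the medians at the 2 ages were not compared. *Nr1d1* was 1.64 higher in WT at 40 weeks (adjusted *P* = 3.68e-08), *Cacna2d4* 5.03 (adjusted *P* = 3.92e-08), and *Slc2a3* 2.88 (adjusted *P* = 3.55e-06). *Per2* was not called at 40 weeks, at 193 ± 36.6 in WT and 190 ± 45.6 in KO+AAV (adjusted *P* = 0.932), and *Per3* was called at 40 weeks (1.48, adjusted *P* = 0.00492) and not at 10 weeks. For these 2 genes the change with age was not itself called (adjusted *P* = 0.11 and 0.246).

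Values of the marker lists at 40 weeks depended on single libraries. KO+AAV replicate 2 of that age had the lowest estimated quality weight of the 10 libraries, 0.285. The fibroblast and collagen list had a median of 0.33, with 3 genes called higher and 1 lower in WT, and without that library a median of -0.09, with 2 and 2. The macrophage list had a median of 0.15 with 0 called, and -0.35 with 1 lower without that library. The adipocyte list was at -0.06, from -0.18 without KO+AAV replicate 2 to 0.06 without KO+AAV replicate 5. For these 3 lists the sign at 40 weeks therefore was not stable to leaving out 1 library. At 10 weeks all 3 medians kept their negative sign, the adipocyte median being -0.43 without KO+AAV replicate 4 and the macrophage median -0.58 without KO+AAV replicate 5. The 10-week adipocyte median was -1.21 within ICBR but -0.07 within Novogene, the site of all 40-week libraries. The macrophage medians were -0.69 and -1.60 at these sites, and the fibroblast and collagen medians -0.94 and -0.48. For MHC class II and the MHC class I and interferon genes the 40-week medians were -0.37 and -0.16 with 0 called by limma, and -0.97 and -0.33 without KO+AAV replicate 2. The fatty acid uptake and oxidation list had 10 lower and 0 higher at 40 weeks, with a median of -0.39, and 6 (without WT replicate 1) to 13 (without KO+AAV replicate 4) lower with 1 library left out. The change of a list with age was not tested.

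The difference between ages was tested as an interaction, and 104 of all genes tested were called, 19 of them among the 834. In 9 of the 19 the WT difference was larger at 40 weeks with the same sign, in 3 smaller with the same sign, and in 7, *Slc17a7* among them, of the other sign. *Actr3b* was 4.0 higher in WT at 10 weeks and 1.32 at 40 weeks (change -2.68, SE 0.56, adjusted *P* = 0.0154), where KO+AAV was at 167 ± 100 normalized counts against 369 ± 49.4 in WT. *Ankrd1* and *Cdkn1a* separated further, from -2.40 to -4.69 (adjusted *P* = 0.0342) and from -2.02 to -4.34 (adjusted *P* = 0.03), with KO+AAV at 3960 ± 1385 and 5503 ± 1742 at 40 weeks. *Grb10* went from -1.12 to -0.29 (adjusted *P* = 0.0257), *Rab11b* from -0.65 to -1.11 (adjusted *P* = 0.0172), and *Slc17a7* from -3.28 to 0.11 (adjusted *P* = 0.0123). All 40-week libraries were sequenced at Novogene, and site was an additive term of the model. Such a term does not adjust for a difference between WT and KO+AAV that itself depends on site. Age and the mix of sites therefore cannot be fully told apart in the interaction.

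**Figure D5:**
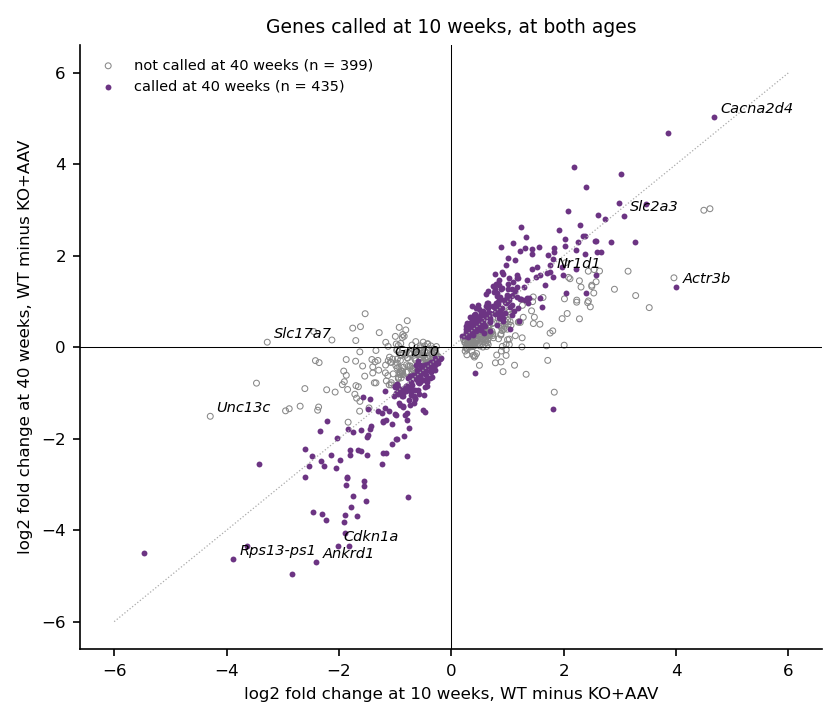
Log2 fold change between WT and KO+AAV at 40 weeks (y axis, n = 5 and 5) against that at 10 weeks (x axis, n = 6 and 7) for the 834 genes called at 10 weeks, 1 point per gene, positive when higher in WT. Filled points were also called at 40 weeks, the dotted line marks equal values, and *Actr3b*, *Slc17a7*, and *Ankrd1* lie away from it.

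The vector control gave the size of differences between 3 KO+GFP and 3 KO libraries, whose values are in a table normalized on its own. There 265 of 14477 genes (1.83%) were higher and 183 (1.26%) lower with GFP. These 448 calls became 277, 269, and 108 without KO+GFP replicates 1, 2, and 3. Of the genes called higher in WT than in KO+AAV, 432 were tested in this set, and 5 were higher and 12 lower with GFP. Of those called lower in WT, 340 were tested, and 7 were higher and 9 lower with GFP. *Nr1d1* was lower with GFP (-0.54, adjusted *P* = 0.0386), the same direction as in KO+AAV against WT. *Casq2* and *Plin5* were higher with GFP (0.93 and 1.05, adjusted *P* = 0.00259 and 0.00711), also the direction of KO+AAV against WT. *Per2* was higher (0.96, adjusted *P* = 0.0324) and *Gadd45g* lower (-1.57, adjusted *P* = 0.00172), again in that direction. *Tcap* and *Tbc1d1* were higher with GFP (0.53 and 1.27, adjusted *P* = 0.0148 and 0.0495) and *Chrna1* lower (-0.50, adjusted *P* = 0.0314), opposite to KO+AAV against WT. Several lists that were lower in WT than in KO+AAV by their median were higher with GFP. In this set 8 of 10 slow fiber genes (median 2.28), 20 of 34 genes of fatty acid uptake and oxidation (0.46), 9 of 22 PPAR target genes (0.56), 7 of 24 fibroblast and collagen genes (0.65), 4 of 11 macrophage markers (1.12), 3 of 10 cardiac or developmental sarcomere genes (1.05), and 2 of 7 MHC class II genes (1.21) were higher with GFP and 0 of any of them lower. The MHC class I and interferon list had 0 of 24 (0.22). Other lists with a negative median between WT and KO+AAV were not higher with GFP, among them the Schwann cell markers (median -1.18, 0 higher and 3 lower of 8), the denervation and acetylcholine receptor genes (-0.14, 0 and 1 of 15), and the stress and senescence genes (-0.24, 0 and 1 of 20). The part of the vector in the differences between WT and KO+AAV was not tested. *Actr3b*, *Slc2a3*, *Rab11b*, *Chrnb1*, and *Grb10* were not called there (adjusted *P* = 0.805, 0.967, 0.803, 0.153, and 0.223). Both groups of this set are KO, where *Actr3b* and *Slc2a3* were already at low counts, so a further decrease would be hard to see. With 3 libraries in each group, a gene not called is not shown to be unchanged.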

How the data were processed

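Reads of gastrocnemius libraries were aligned by the authors with HISAT2 to GRCm38 (mm10) and counted per gene with HTSeq, per the labels' processing notes. The deposited signal is this count divided by a DESeq2 size factor per library. Multiplied by that factor, 100% of values were whole within 0.05, so reads were recovered. Annotation release and strand use are not given in the sources used here.

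Normalized counts were tested as log2(value + 1), on which scale fold changes of low genes are understated, with limma 3.58.1 (trend) in R 4.3.3. The model held 34 gastrocnemius libraries in 6 groups with site, for 16199 of 55401 genes with a mean above 5. Benjamini-Hochberg adjustment was over all genes tested, at 0.05. The GFP libraries had their own fit. The methods were tested on simulated data. Coordinates are from GENCODE vM21. Alternatives included edgeR 4.0.16 and DESeq2 1.42.0.

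Members, lists, and tests were chosen with earlier results of these data known. Named genes are *Arntl*, the clock panel, the 10 with the smallest *P* and the 5 largest changes without overlap per direction (no Gm or Rik symbols), up to 4 members per list, and genes the study names. Further list members, neighbors of *Arntl*, *Irx3*, *Rnpc3*, *Hectd2*, *Pax7*, *Col1a2*, *Cd68*, and *Adgre1* were named after their values were seen. Not all genes that this rule takes are reported here.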

Additional observations from a re-analysis of the deposited data

Results flagged for a closer look

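Of 213 groups of values tested for a library far from the rest, 22 held one, 15 in KO+AAV and 7 in WT, where chance gives about 1 in 20. KO+AAV replicate 4 was that library in 9 genes: *Col1a1* (49980 normalized counts), *Sparc* (31438), *Col4a1* (11135), *Col4a2* (8427), *Grb10* (1981), *Apln* (371), *Pparg* (147), *Dkk3* (139), and *Bbc3* (84.2). KO+AAV replicate 6 was apart for *Agpat3* (3341), *Plin5* (904), and *Unc13c* (211), replicate 5 for *Lyz2* (5150) and *Chrna1* (684), and replicate 3 for *Bhlhe41* (1485). Among WT libraries, replicate 4 was apart for *Car3* (14201, low) and *Gpt* (487), replicate 7 for *Myh7* (4943) and *Oplah* (1013), replicate 6 for *Actc1* (12754), replicate 5 for *Lyz2* (847), and replicate 2 for *Lrtm2* (116).

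In 6 named genes the difference between WT and KO+AAV changed from 10 to 40 weeks in the interaction test. The change, 40 minus 10 weeks on the log2 scale, was 3.39 for *Slc17a7*, 0.83 for *Grb10*, -0.46 for *Rab11b*, -2.28 for *Ankrd1*, -2.31 for *Cdkn1a*, and -2.68 for *Actr3b*.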

How the results depend on the processing

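The 834 calls at 10 weeks became 1396 with DESeq2, 1698 with library quality weights, 1418 at *P* under 0.01 unadjusted, 168 and 159 in ICBR and Novogene libraries alone, and 519 without both libraries numbered 4, a choice made after seeing the data. Leaving out 1 library gave 582 to 883. Called list members, 62, became 109 with DESeq2, 154 with weights, 102 at *P* under 0.01, and 20 and 22 at single sites. Calls within 10 Mb of *Arntl*, 16, became 9 without a filter, 9 at a mean above 50, 2 and 1 at single sites, 8 without both libraries numbered 4, and 8 to 15 without 1 library. The E-box share of genes higher in WT, 10.2%, was 5.19% in Novogene libraries alone, where 71.7% of calls were higher in WT against 57.1% in the fit reported. The 2018 calls at 40 weeks became 2032 in the 10 libraries alone and 1539 to 1939 without 1 library, and the 448 GFP calls 108 to 646. Causes of these shifts were not tested, apart from the fewer libraries or genes that some settings use by construction. Of 107 named genes 88 were called, 26 of them under all 27 settings, and none reversed. *Trim12a* and *Trim30d* were not called with edgeR or DESeq2. Some lists held more calls with both edgeR and DESeq2 than with limma. Among them were fibroblast and collagen genes (3 with limma, 6 with edgeR, and 8 with DESeq2) and macrophage markers (2, 4, and 6). Phospholipid genes (2, 4, and 8), calcium genes (3, 6, and 6), and glycolysis genes (1, 2, and 4) did so too. So did fatty acid genes (1, 2, and 3), satellite cell markers (1, 2, and 3), and adipocyte markers (1, 2, and 2). Amino acid metabolism genes (1, 2, and 2) and denervation and acetylcholine receptor genes (3, 4, and 4) also did. Others held more with DESeq2 alone, among them secreted factor genes (5, 5, and 10) and glucose uptake and pyruvate entry genes (6, 6, and 8). Stress and senescence genes and MHC class I and interferon genes were at 4, 4, and 6 each. A replicate block gave 1023 calls, but libraries sharing a number correlated at -0.06 to 0.25 and 3 of 6 correlated best with their own number, so the numbers, not all over 0.1, were not taken to pair libraries. Under the block 14 of the named calls were not made, those of *Usp2*, *Nampt*, *Plin5*, *Agpat2*, *Mylpf*, *Tead4*, *Bbc3*, *Sparc*, *Cldn5*, *Kcna7*, *Chrna1*, *Spon1*, *Dkk3*, and *Crym*, and *Bhlhe41* was called. The 3 that correlated best with their own number, 3, 4, and 5 (0.249, 0.151, and 0.168), are a hint from the data and not from the design. Novogene libraries are shallower than ICBR libraries (medians of 11416985 and 37300424 reads in WT), which limits low genes.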
